A study of Mus musculus with 12 samples.

Results

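Pax7 and Pax3 are the 2 paired-box transcription factors that mark the precursors of skeletal muscle, and they were described here across muscle stem cells at rest, the same cells after culture and other cells of muscle. Their members on the array were all probe sets that the platform annotation assigns to 1 of these genes and to no other. This gave 1 probe set for Pax7 (1452510_at) and 2 for Pax3 (1420389_at and 1430335_a_at), which are 3 of 20380 single-gene probe sets and 2 of 12393 genes. Both genes had their highest signals in quiescent satellite cells. Pax7 fell 9.79-fold in the cultured, activated cells and stayed above the non-myogenic cells on every array. The brighter Pax3 probe set fell 4.58-fold, to a level that the test did not separate from non-myogenic cells. The dimmer one fell 1.91-fold and stayed above the non-myogenic cells. A constant added to all signals shrinks the folds of dim probe sets, so these sizes do not show whether the genes fell unequally.

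Pax7 and Pax3 proteins bind DNA through a paired domain and a homeodomain. In the embryo both are active in the dermomyotome, from which limb and trunk muscle arises, and Pax3 also acts in the neural crest, the source of Schwann cells and melanocytes. In the adult, Pax7 is the defining marker of satellite cells, the stem cells that lie beneath the basal lamina of the muscle fibre and regenerate it after injury. Pax3 is kept in the satellite cells of some muscles only. Activated satellite cells express Myod1, divide, and either lower Pax7 and differentiate or lower Myod1 and return to quiescence.

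The samples were sorted from hind limb muscles of C57BL/6J mice aged 8 to 12 weeks, and each was hybridised to 1 Affymetrix Mouse 430A array, 4 arrays a group. Quiescent satellite cells (QSC) were taken directly after sorting with SM/C-2.6, an antibody that recognises these cells, and the labels put the Pax7-positive share above 97%. Activated satellite cells (ASC) were the SM/C-2.6-positive fraction after 4 days of culture with 20% fetal calf serum and 2.5 ng/ml bFGF, a fibroblast growth factor, with a MyoD-positive share above 99%. Non-myogenic cells (NMC) were negative for SM/C-2.6 and for CD45, which is carried by leukocytes, and less than 1% were myogenic. No group carried a transgene or a deleted gene by the labels. Activation, culture, serum, growth factor and time cannot be told apart between ASC and QSC. Separate animals or sorts are not named for the arrays within a group, so the p-values measure the spread between arrays, which may be technical.

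The sequence around the Pax7 start site, from RefSeq, is printed from its 5' end to show the promoter of the member that changed most. The window runs from 250 bases before to 50 bases after the transcription start, at chr4:139832919-139833218 on the minus strand of GRCm38.p6, and overlaps the promoter and the first transcribed bases of Pax7. The capitals mark a GC box, the letters GGGCGG read on the reverse strand.

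Pax7: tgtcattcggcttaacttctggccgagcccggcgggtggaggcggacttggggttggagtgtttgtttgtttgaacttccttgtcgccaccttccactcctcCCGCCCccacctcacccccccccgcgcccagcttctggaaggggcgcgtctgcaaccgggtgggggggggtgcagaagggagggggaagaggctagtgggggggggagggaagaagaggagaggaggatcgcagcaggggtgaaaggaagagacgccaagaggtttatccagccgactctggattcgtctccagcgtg

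This window was 63.7% G or C against a median of 52.7% over 32851 promoter windows, and it held 17 CpG dinucleotides against a median of 7. The single GC box began at position -148 from the start site, and 35.7% of the windows hold at least 1 such match on either strand. No match on either strand was found for the E-box CANNTG (in 72.3% of windows), the TGGGAA core bound by the Notch effector Rbpj (25.6%) or the TATA box TATAAA (13.6%). These are matches of letters, and binding was not measured.

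Signals below are MAS5 values, in which mismatch probes are subtracted from perfect-match probes, after each array was scaled to a trimmed mean of 235.142. Differences are on a log2(signal + 14.6964) scale and come from limma with Benjamini-Hochberg adjustment over all 20380 probe sets, called at an adjusted p under 0.05. The added 14.6964 shrinks differences and folds of dim probe sets, and without detection calls no probe set has a background limit. Before scaling, the trimmed means were 323 to 502 on the 5 arrays labelled with a small-sample kit (2 QSC, 2 ASC, 1 NMC) and 160 to 236 on the 7 labelled with a two-cycle kit (2 QSC, 2 ASC, 3 NMC). Every limma fit therefore has a term for the kit, and differences within each kit are given beside the results.

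Pax7, the satellite cell marker, had scaled signals of 1004, 1899, 743 and 640 on the 4 QSC arrays. On the ASC arrays its signals were 109, 125, 65.0 and 61.8. On the NMC arrays they were 6.66, 3.01, 1.24 and 5.39. The 3 groups did not overlap on any array: the lowest QSC array lay above the highest ASC array, and the lowest ASC array above the highest NMC array. Mean Pax7 signal was 1071 ± 572 in QSC, 90.2 ± 31.7 in ASC and 4.07 ± 2.42 in NMC (SD, n = 4 each), so the ASC mean was 8.42% and the NMC mean 0.380% of the QSC mean. That order, QSC above ASC above NMC with no overlap, was met by 96 of the 20380 probe sets (0.471%), and by neither Pax3 probe set. Among the listed genes described further on, it was also met by Myf5, Fgfr4, Lbx1, Cdh15, Vcam1 and Ncam1.

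The Pax3 probe set 1420389_at had scaled signals of 161, 197, 97.3 and 114 in QSC. Its ASC signals were 10.7, 25.5, 26.2 and 14.4, and its NMC signals were 5.49, 8.22, 19.8 and 16.2. All QSC arrays lay above the other 8, and ASC and NMC overlapped. Mean signal was 142 ± 45.5 in QSC, 19.2 ± 7.84 in ASC and 12.4 ± 6.70 in NMC (SD, n = 4 each). The ASC mean was 13.5% and the NMC mean 8.73% of the QSC mean.

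The other Pax3 probe set, 1430335_a_at, was the dimmest of the 3 members, with a mean signal of 31.6 over all arrays. Its QSC signals were 76.6, 107, 23.2 and 61.9. Its ASC signals were 33.5, 30.6, 18.1 and 19.0, and its NMC signals were 2.53, 3.91, 0.868 and 1.60. The third QSC array lay within the ASC range, and all 4 NMC arrays lay below every other array. Mean signal was 67.2 ± 34.8 in QSC, 25.3 ± 7.88 in ASC and 2.22 ± 1.31 in NMC (SD, n = 4 each). Of the 3 members, this one alone had a mean signal under 47.0284, which is 0.2 of the trimmed mean.

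**Figure D1:**
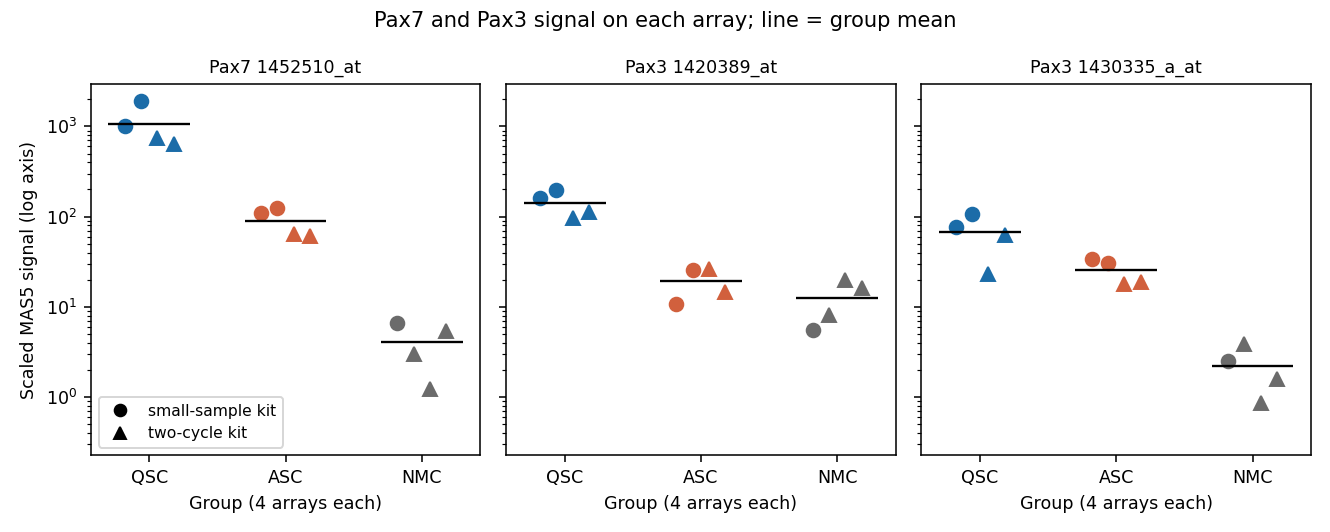
Scaled MAS5 signal (log axis) of the Pax7 probe set and both Pax3 probe sets on each of the 12 arrays; circles are arrays labelled with the small-sample kit, triangles with the two-cycle kit, and lines are group means. Pax7 falls in 2 steps from a mean of 1071 in QSC to 90.2 in ASC and 4.07 in NMC, while the ASC and NMC arrays of Pax3 1420389_at overlap.

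The first comparison asked what differed between activated and quiescent satellite cells. Pax7 was lower in ASC by 3.29 ± 0.20 on the log2 scale, which is 9.79-fold (95% interval of the log2 difference -3.73 to -2.85, limma adjusted p = 4.17e-08, lower on 4 of 4 arrays). It was the 300th lowest of the 20380 differences. Pax3 1420389_at fell by 2.20 ± 0.25 (4.58-fold, interval -2.73 to -1.66, limma adjusted p = 8.76e-06) and was the 804th lowest. Pax3 1430335_a_at fell by 0.93 ± 0.23 (1.91-fold, interval -1.43 to -0.44, limma adjusted p = 0.004), with arrays of the groups overlapping. All 3 members were called lower, where 31.3% of all probe sets were called lower, 19.7% higher and 51% in either direction. For 2 of the 3 members, every ASC array lay below every QSC array; 37.7% of all probe sets had no overlap in either direction.

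The fall was present within each labelling kit. Pax7 differed between ASC and QSC by -3.41 among arrays of the small-sample kit and by -3.17 among those of the two-cycle kit. For Pax3 1420389_at the within-kit differences were -2.60 and -1.80. For Pax3 1430335_a_at they were -1.17 and -0.69, and the second was not called on its own (limma adjusted p = 0.103). This dimmest probe set also lost its call when arrays were centred on their median (-0.58, adjusted p = 0.115) or quantile-normalised (-0.53, adjusted p = 0.0996). The difference between kits in the ASC against QSC change was not called for any member, with limma adjusted p-values of 0.807 for Pax7, 0.342 for Pax3 1420389_at and 0.608 for Pax3 1430335_a_at, where 1.12% of all probe sets were called. The level of Pax7 also differed between the kits and was lower with the two-cycle kit by 0.70 ± 0.17 (limma adjusted p = 0.0108), where 25.8% of all probe sets were called.

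The second comparison set quiescent satellite cells against the non-myogenic cells. Pax7 was higher in QSC by 5.56 ± 0.21 on the log2 scale (interval 5.11 to 6.01, limma adjusted p = 1.63e-09). Pax3 1420389_at was higher by 2.51 ± 0.25 (limma adjusted p = 6.76e-06) and Pax3 1430335_a_at by 2.02 ± 0.23 (limma adjusted p = 2.14e-05). No fold is given against NMC, because all 4 NMC signals of Pax7 and of 1430335_a_at lay below the added 14.6964, which then sets the size: the Pax7 difference was 3.91 with a pseudocount of 1/4 and 6.83 with 1/64 of the trimmed mean. All 3 were called higher, where 19.2% of all probe sets were called higher, 16% lower and 35.2% either way, and none overlapped between the groups, against 27.8%. Within the small-sample and the two-cycle kit the differences were 6.03 and 5.30 for Pax7, 3.26 and 2.05 for 1420389_at, and 2.61 and 1.68 for 1430335_a_at. The Pax7 protein was also what the submitters used to describe the purity of QSC, so its height there is a check of the labels rather than a separate observation.

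The third comparison asked whether cultured satellite cells still differed from non-myogenic cells at these genes. Pax7 remained higher in ASC, by 2.27 ± 0.21 on the log2 scale (interval 1.82 to 2.72, limma adjusted p = 8.72e-07), and by 2.62 and 2.13 within the 2 kits. Its size again followed the pseudocount, from 1.08 at 1/4 to 3.38 at 1/64 of the trimmed mean. The 2 Pax3 probe sets disagreed. Pax3 1430335_a_at was higher in ASC (by 1.09 ± 0.23, interval 0.58 to 1.59, limma adjusted p = 0.00149) with no overlap between arrays. Pax3 1420389_at differed by 0.31 ± 0.25 (interval -0.24 to 0.86, limma adjusted p = 0.357), with overlapping arrays, and passed the threshold only under median centring (0.82, adjusted p = 0.0481). In this comparison 21.9% of all probe sets were called higher, 26.9% lower and 48.8% either way, and 41.3% did not overlap.

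**Figure D2:**
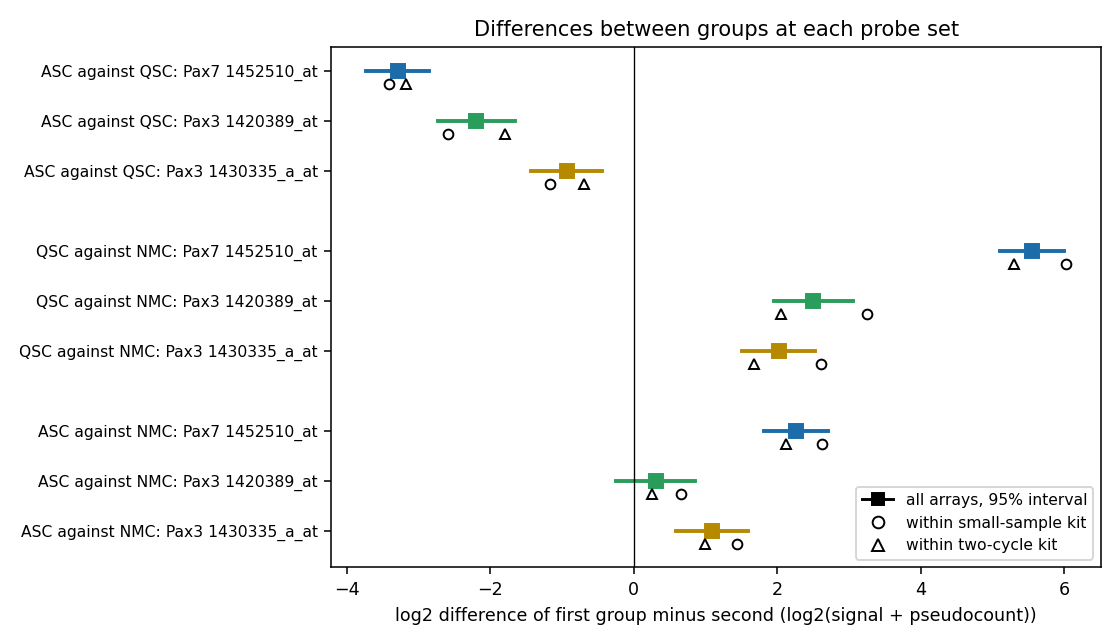
Differences of Pax7 and both Pax3 probe sets between groups, as log2(signal + pseudocount); squares with lines are the fit over all 12 arrays with its 95% interval, circles and triangles the difference within the small-sample and two-cycle kit. All intervals lie on 1 side of 0 except that of Pax3 1420389_at in ASC against NMC, which runs from -0.24 to 0.86.

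Whether Pax7 and Pax3 changed alike was read from log2 Pax7 minus log2 Pax3 (1420389_at) on the same array. It was 2.53, 3.17, 2.76 and 2.35 in QSC, 2.29, 1.80, 0.96 and 1.39 in ASC, and 0.08, -0.37, -1.12 and -0.62 in NMC. The groups did not overlap: every ASC array lay below every QSC array and above every NMC array. The difference in means was -1.09 for ASC against QSC (1.61 against 2.70), 3.21 for QSC against NMC and 2.12 for ASC against NMC. Each gave a two-sided exact permutation p of 0.0286, the smallest that 4 against 4 arrays allow, and 0.0286 after Benjamini-Hochberg adjustment over the 3 comparisons. This test has no term for the kit and exchanges arrays across kits. Within the small-sample and two-cycle kit the value was -0.81 and -1.38 for ASC against QSC, 2.77 and 3.26 for QSC against NMC, and 1.96 and 1.88 for ASC against NMC, with 1 small-sample NMC array.

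How far each probe set could fall on this scale differed, because the pseudocount sets a floor. From its QSC mean to a signal of 0, Pax7 could fall by at most 6.08, Pax3 1420389_at by at most 3.37 and Pax3 1430335_a_at by at most 2.36. With a pseudocount of 1/64 instead of 1/16 of the trimmed mean, the ASC against QSC difference in log2 Pax7 minus log2 Pax3 was -0.76 (exact permutation p adjusted to 0.143). Without any 1 of the 4 QSC arrays the adjusted exact p was 0.0571 each, although the groups still did not overlap. With the replicate number as a block the exact sign-flip p was 0.125, the smallest that 4 pairs give, so that test could make no call. Because the call changed with the pseudocount and the room to fall differed, an unequal fall on culture is not settled by these arrays. In both NMC contrasts the size depends on this floor, as Pax7 has more room to fall: with pseudocounts of 1/4 and 1/64 it was 2.57 and 3.81 for QSC against NMC, and 1.09 and 3.05 for ASC against NMC.

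**Figure D3:**
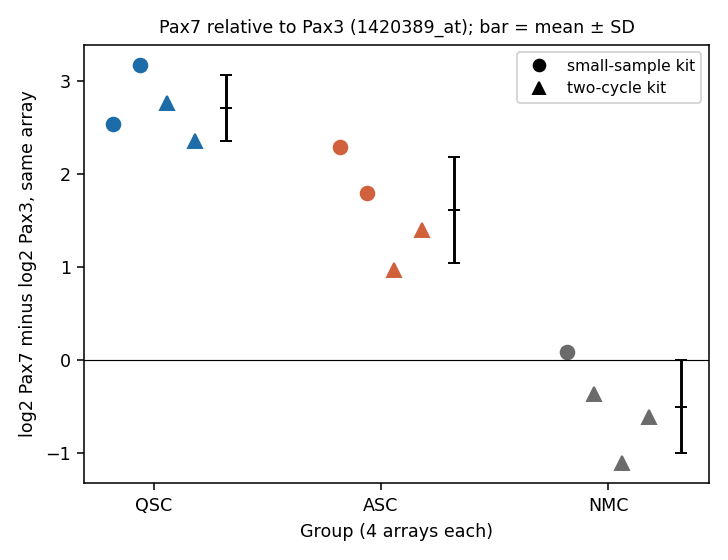
Log2 Pax7 minus log2 Pax3 (1420389_at) on each array by group, with the mean ± SD of 4 arrays beside the points; circles are small-sample and triangles two-cycle arrays. The group means step down from 2.70 in QSC to 1.61 in ASC and -0.51 in NMC.

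The levels of the 3 probe sets moved together across the 12 arrays, which mostly repeats the difference between groups. Pearson r of the log2 levels was 0.92 between Pax7 and Pax3 1420389_at, 0.94 between Pax7 and Pax3 1430335_a_at, and 0.82 between the 2 Pax3 probe sets. After the group and kit means were taken out, the same pairs gave 0.53, 0.42 and 0.47. The arrays share libraries and scaling, so these values are a description.

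Among 7959 other genes whose mean signal reached 47.0284, the 6 whose log2 levels followed Pax7 most closely were Gdnf (r = 0.98), Cox7c (0.98), Rpl12 (0.975), Cd82 (0.97), Sox9 (0.97) and Dicer1 (0.97), and 86 genes had an r above 0.9. Gdnf encodes a growth factor of neurons, Cd82 a tetraspanin of the cell surface, Sox9 a transcription factor of cartilage, and Dicer1 the enzyme that cuts microRNA precursors. Gdnf had mean signals of 264 in QSC, 52.0 in ASC and 4.03 in NMC. Cd82 had 2332, 507 and 112. From QSC to ASC, Gdnf fell by 2.01 ± 0.21 and Cd82 by 2.32 ± 0.24 on the log2 scale, both less than the 3.29 of Pax7. The genes were picked by their r over these same arrays, so their falls follow from the pick and are only a description. The signal limit uses the mean over all arrays, so high QSC signals alone can pass it. Cox7c and Rpl12 are housekeeping genes of the respiratory chain and the ribosome, and the values are those of 1459885_s_at and 1435655_at. Each gene stands here by its probe set of highest mean. Cox7c, Cd82, Sox9 and Dicer1 have 2 probe sets, and the values of the other are not given here.

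The 6 genes closest to Pax3 1420389_at were Slc39a14 (r = 0.97), Rhoh (0.97), Clcf1 (0.96), Il17ra (0.96), Tcaf2 (0.96) and Tec (0.96), with 54 genes above 0.9. They also followed Pax7, with r from 0.86 (Tcaf2) to 0.96 (Clcf1). Clcf1 was as close to Pax7 (0.962) as to Pax3 (0.959). The 6 genes closest to Pax7 had an r of 0.85 (Cd82) to 0.92 (Cox7c) with Pax3 1420389_at. Slc39a14 is a zinc and iron transporter, Clcf1 a cytokine, Il17ra a cytokine receptor and Tec a tyrosine kinase. Slc39a14 and Il17ra have 2 probe sets and Clcf1 has 3, and only the probe set of highest mean is given. From QSC to ASC these 6 genes fell by between 1.44 (Tcaf2) and 3.44 (Rhoh) on the log2 scale. Between ASC and NMC, Clcf1 was 0.95 higher in ASC (limma adjusted p = 0.000483), and the others, like Pax3 1420389_at itself, did not pass the test. As the genes were picked by r over the same arrays, these differences too are only a description.

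**Figure D4:**
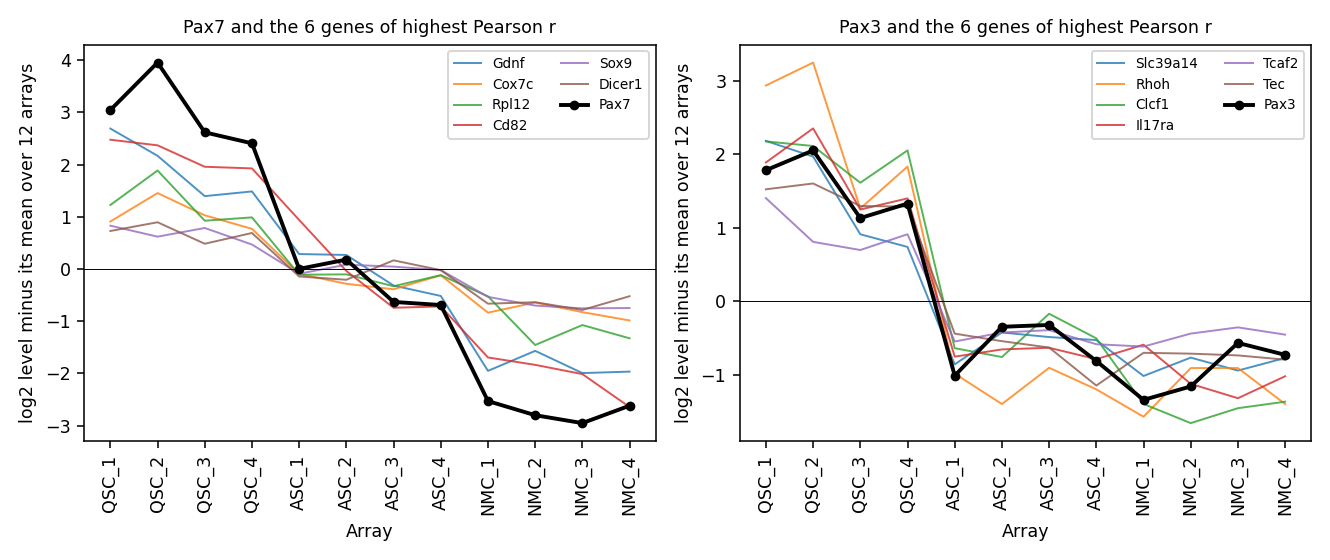
Log2 level of Pax7 (left) and Pax3 1420389_at (right) in black on each array, minus the mean over 12 arrays, with the 6 genes of highest Pearson r in colour. Pax7 and its 6 genes step down from QSC to ASC to NMC, while Pax3 and its 6 genes are high in QSC, and of these 6 Clcf1 alone passes the test between ASC and NMC.

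Of the 7 other Pax genes listed, 6 had a single-gene probe set, and none of these reached the mean signal of 47.0284. Between ASC and QSC, 2 of 6 were called lower and 0 higher, against 33.1% and 20.9% of all genes, and their median log2 difference was -0.41 against -0.21 over all genes. Pax6, a factor of eye and brain development, had mean signals of 34.8 in QSC and 17.0 in ASC and fell by 0.65 ± 0.14 (limma adjusted p = 0.0018), while its 4 other probe sets were not called. Pax8, a thyroid and kidney factor that was picked after its values were seen, fell by 0.70 ± 0.17 (limma adjusted p = 0.00435). Neither was called after median centring or quantile normalisation, nor was Pax6 with the small-sample kit alone or Pax8 with the two-cycle kit alone. Pax1 (-0.38, limma adjusted p = 0.24), Pax4 (0.01, 0.952) and Pax5 (-0.44, 0.115), which act in the sclerotome, the pancreas and B cells, did not pass.

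All 12 genes listed as reported direct or indirect targets of Pax3 or Pax7 were measured. Of these, 7 were called lower and 3 higher in ASC than in QSC and 2 did not pass, with a median log2 difference of -0.93 against -0.21 over all genes, of which 33.1% were called lower and 20.9% higher. Under median centring 5 were called lower and 4 higher. Against NMC, 6 were called higher in QSC, 0 lower, and 6 did not pass. The median was 0.67 against 0.08 over all genes, of which 19.1% were called higher and 18.3% lower. Unscaled values and the fit without the 2 small-sample ASC arrays gave 2 called lower, and median centring and quantile normalisation 1 each. ASC against NMC gave 7 higher, 3 lower and 2 that did not pass, where 22.5% of all genes were called higher and 29.8% lower. Within the small-sample and the two-cycle kit, 5 and 7 of the 12 were called lower between ASC and QSC and 3 and 4 higher.

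Myf5, the myogenic factor whose enhancers Pax7 binds, had QSC signals of 1858, 907, 4566 and 3234. Its ASC signals were 497, 651, 449 and 395, and its NMC mean was 10.2 ± 4.49 (SD, n = 4). The small-sample QSC arrays were the 2 lower ones, the reverse of Pax7, which was higher on them. Myf5 fell by 2.16 ± 0.37 from QSC to ASC (limma adjusted p = 0.00032), and differed by -1.17 among small-sample arrays (adjusted p = 0.0683) and by -3.15 among two-cycle arrays. Myod1, the myogenic factor that marks activation, went the other way, from 813 to 1580 in QSC to 3305 to 5829 in ASC, a rise of 1.85 ± 0.19 (limma adjusted p = 3.01e-06).

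Receptors and their modulators on the target list did not move as 1 group. Fgfr4, a fibroblast growth factor receptor, fell by 3.44 ± 0.39 (limma adjusted p = 8.97e-06), and its 4 other probe sets fell by 0.40 to 3.37. Spry1, which restrains signalling by receptor tyrosine kinases and is known for its part in the return of satellite cells to quiescence, fell by 3.93 ± 0.24 (limma adjusted p = 3.44e-08), from a mean signal of 4776 to 284. Met, the receptor of hepatocyte growth factor, rose by 1.72 ± 0.13 (limma adjusted p = 2.98e-07), although its signal was low throughout, with means of 6.05 in QSC, 54.3 in ASC and 2.85 in NMC.

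Among the other targets, Itm2a, a membrane protein, fell by 2.38 ± 0.27 between QSC and ASC, and Dmrt2, a dermomyotome transcription factor, fell from a mean signal of 109 to 30.2 (limma adjusted p = 0.000183). Id3, an inhibitor of myogenic helix-loop-helix factors, fell by 1.07 ± 0.23 (limma adjusted p = 0.00167), a call lost under median centring (-0.61, adjusted p = 0.0547). Itm2a and Dmrt2 did not differ by the test between QSC and NMC (0.11 and -0.55, limma adjusted p = 0.793 and 0.104). The other Itm2a probe set was at -0.57 there (limma adjusted p = 0.0579). Dmrt2 was called lower in QSC on unscaled values (-0.90, adjusted p = 0.0188), with only the arrays compared (-0.44, 0.0317) and without the 2 small-sample ASC arrays (-0.44, 0.0406). Foxc2 and Lbx1 were singled out after their values were seen. Foxc2, a mesoderm factor, rose by 3.22 ± 0.31 (limma adjusted p = 2.14e-06, mean 15.9 in QSC and 268 in ASC). Between QSC and NMC it was not called (-0.85, limma adjusted p = 0.0534), but 11 of 27 alternatives called it lower in QSC. Lbx1, a factor of migrating limb precursors, fell by 0.80 ± 0.15 (limma adjusted p = 0.000475, lost under median centring at -0.35 and within the small-sample kit at -0.55), and its other probe set was not called (-0.47, adjusted p = 0.106).

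Partners and modifiers of Pax3 and Pax7 proteins were measured for 11 of 15 listed genes. Between ASC and QSC, 4 were called lower and 3 higher and 4 did not pass, with a median of -0.04 against -0.21 over all genes, of which 33.1% were called lower and 20.9% higher. The balance turned on unscaled values, with 3 lower and 4 higher, and under median centring, with 3 lower and 5 higher. Nedd4, singled out after its values were seen, was among those called lower, at -0.51 (limma adjusted p = 0.022) on its brightest probe set. Its other probe sets gave 0.54 (0.00465, called higher) and -0.57 (0.548), so its call depends on the probe set. Paxbp1, an adaptor that links Pax7 to a histone methyltransferase complex, fell by 1.53 ± 0.15 at its brightest probe set (limma adjusted p = 2.64e-06), while its 2 other probe sets changed by -0.43 (0.034) and -0.24 (0.492). Ash2l, a core subunit of that complex, rose by 1.38 ± 0.18 (limma adjusted p = 2.85e-05) at 1420616_at and differed by -0.19 (0.424) at 1420615_at. Wdr5, another core subunit, differed by 0.26 ± 0.14 (limma adjusted p = 0.136) at its brightest probe set and by 2.31 (2.14e-07) at the other, so its 2 probe sets disagree.

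Carm1, the arginine methyltransferase that acts on Pax7, rose by 0.55 ± 0.16 (limma adjusted p = 0.0109), but was called within neither kit alone (0.56 and 0.54, adjusted p = 0.148 and 0.0646), nor with the replicate number as a block (adjusted p = 0.0872). The corepressor Tle4 fell by 2.27 ± 0.22 and the deacetylase Sirt2 by 1.42 ± 0.15 (limma adjusted p = 2.26e-06 and 5.02e-06), while the other Tle4 probe set was not called (-0.57, adjusted p = 0.0716). In QSC against NMC, 5 of the 11 partners were called higher and 0 lower (median 0.42 against 0.08 over all genes, of which 19.1% were called higher and 18.3% lower). Unscaled values gave 1 called higher, the small-sample kit alone 0 and the two-cycle kit alone 3. Paxbp1 was among the 5 called higher, by 1.29 ± 0.15 in QSC (limma adjusted p = 2.96e-05), and by 1.05 among small-sample arrays, with 1 NMC array. Its 2 other probe sets were not called in this comparison (0.31 and -0.06, limma adjusted p = 0.152 and 0.889).

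**Figure D5:**
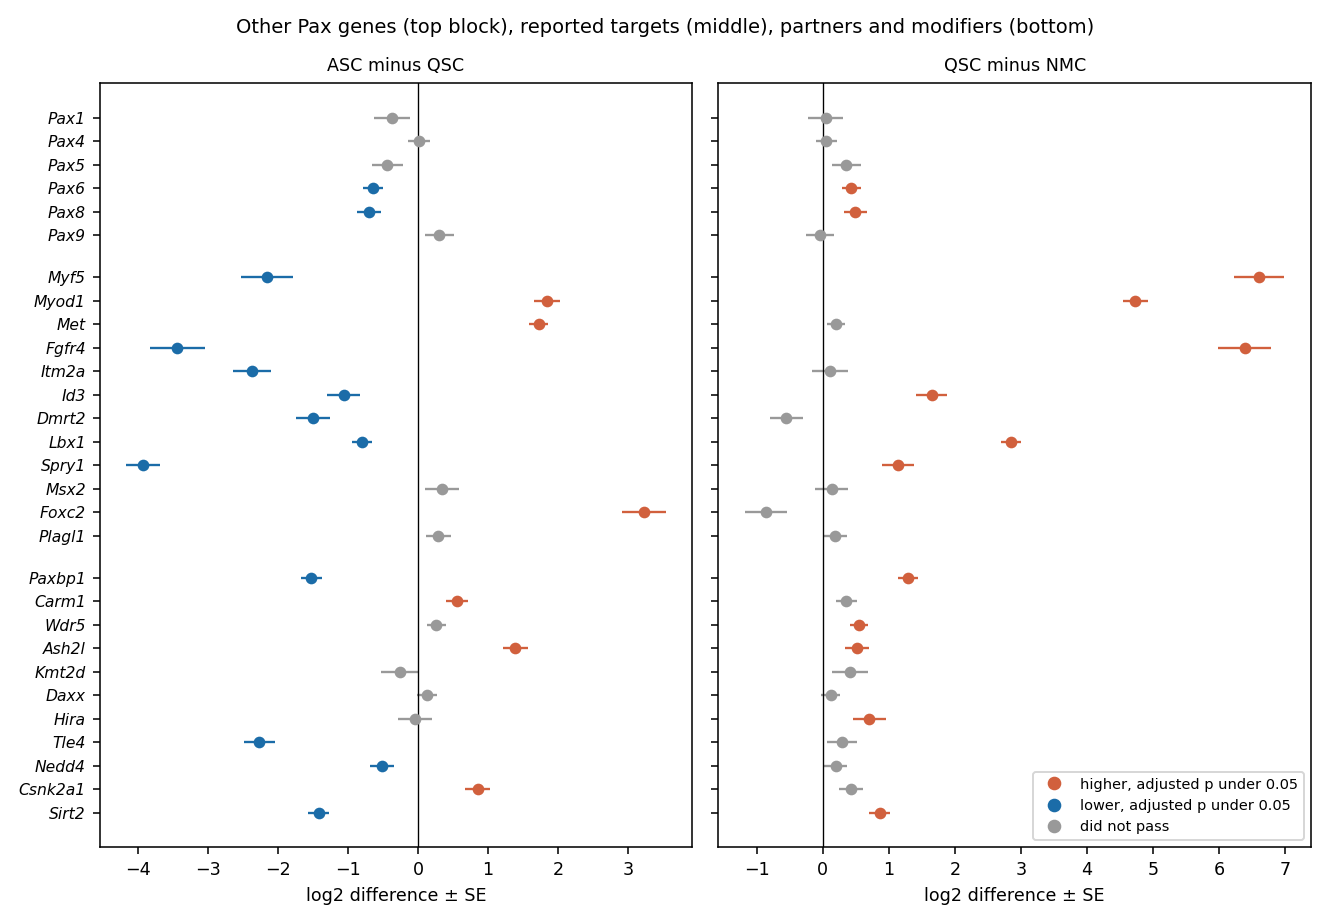
Log2 differences ± SE of the measured other Pax genes (top block), reported targets (middle) and partners and modifiers (bottom), at the brightest probe set of each gene, for ASC minus QSC (left) and QSC minus NMC (right); colour marks a limma adjusted p under 0.05. In ASC minus QSC the targets run from -3.93 (Spry1) to 3.22 (Foxc2), and the other Pax genes from -0.70 to 0.30.

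Genes next to Pax7 and Pax3 in RefSeq order were read with the same fit. On chromosome 4 the nearest measured neighbours of Pax7 were Tas1r2 and Aldh4a1 on one side and Arhgef10l and Rcc2 on the other. Rcc2 rose from QSC to ASC by 1.08 ± 0.14 (limma adjusted p = 3.19e-05). The other 3, with mean signals from 22.5 to 44.1 and so under 47.0284, were not called. Pax3 lies on chromosome 1 between Epha4, which fell by 1.32 ± 0.16 (limma adjusted p = 1.54e-05), and Farsb, which rose by 0.94 ± 0.15 (limma adjusted p = 0.000204). Their further neighbours Slc4a3 and Mogat1 (mean signal 9.35) were not called. Over all genes, 33.1% were called lower and 20.9% higher in this comparison. Between QSC and NMC, Rcc2 (1.24, limma adjusted p = 2.32e-05) and Slc4a3 (-0.92, 0.00698) were called, and no other neighbour was. There 19.1% of all genes were called higher and 18.3% lower.

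Markers of the labelled cell types were set beside these results as summed scaled signals. The 10 satellite cell markers summed to 19802 to 23358 in QSC, 2805 to 4165 in ASC and 4763 to 5042 in NMC. Cd34 made up most of the NMC sum, with mean signals of 1526 in QSC, 21.2 in ASC and 3448 in NMC. Of the 10 markers, 4 were called higher and 3 lower in ASC than in NMC, and 3 did not pass. Over all genes, 22.5% were called higher and 29.8% lower in that comparison. The 5 myoblast markers summed to 5063 to 6141, 9097 to 12948 and 771 to 1038 in the same order. Calcr, a receptor of quiescent satellite cells, had a mean signal of 768 ± 152 in QSC and 9.18 ± 7.29 in ASC (SD, n = 4 each). Myog, a differentiation factor, was at 4532 and 1775 on the small-sample ASC arrays and at 444 and 369 on the two-cycle ones, and the fall of Pax7 was present in both pairs. Without the 2 small-sample ASC arrays, a setting chosen after seeing the data, Pax3 1430335_a_at fell by 0.89 (limma adjusted p = 0.0495).

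Cells of neural crest origin can also carry Pax3, and other cells of muscle can enter a sort. The 7 measured of 10 Schwann and neural crest markers summed to 624 to 1713 in QSC, 167 to 471 in ASC and 1027 to 1504 in NMC, and Mbp was at 1269, 1103, 243 and 369 on the QSC arrays. Sox10 was at 40.9 to 100.2 in QSC and 24.5 to 72.6 in NMC. The 4 measured of 5 melanocyte markers summed to 59.8 to 242, 27.0 to 97.2 and 36.6 to 143. Mbp made up most of the Schwann and neural crest sums, with a mean of 746 of 1183 in QSC and 804 of 1264 in NMC. Of the 7 markers, 2 were called lower and 0 higher in QSC than in NMC, and 5 did not pass. Over all genes, 18.3% were called lower and 19.1% higher. The part of such cells in the Pax3 results was not tested.

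Other marker sums also differed between the groups. The 7 endothelial markers summed to 1221 to 2906 in QSC, 61.7 to 109 in ASC and 6783 to 7502 in NMC. The 6 fibroblast markers summed to 10605 to 18953, 1136 to 1364 and 28811 to 54010, the 6 pericyte and smooth muscle markers to 6439 to 8768, 2214 to 5210 and 9772 to 18243, the 6 leukocyte markers to 83.1 to 298, 44.1 to 77.0 and 157 to 267, and the 6 markers of mature fibres to 2099 to 8004, 498 to 8896 and 8442 to 27684. No marker in any list was at 0 on all arrays of a group, but many had group means under 47.0284. In ASC these were 7 of 7 endothelial, 5 of 6 fibroblast, 3 of 6 pericyte and smooth muscle, 6 of 6 leukocyte and 1 of 6 fibre markers. For the same lists, QSC had 1 endothelial and 5 leukocyte markers under it, and NMC 5 leukocyte markers. In sorted pools, fewer cells carrying Pax7 and less Pax7 RNA per cell cannot be told apart. RNA quality also moved with the groups: the 3' to 5' ratio of the Gapdh control probe sets was 4.02 ± 0.969 in QSC, 1.75 ± 0.411 in ASC and 3.87 ± 0.916 in NMC, and that of beta-actin 2.63 ± 1.04, 1.61 ± 0.346 and 1.96 ± 0.374 (SD, n = 4 each). Its part in the results was not tested.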

How the data were processed

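RNA of 12 sorted or cultured samples was hybridised to 1 array each, and the authors deposited linear intensity values per probe set, made with MAS5 per the submitters' processing notes (settings: not given in the sources used here). Labelling kits come from the labels' protocols. Of 22690 probe sets, 20380 had 1 gene in the platform annotation, 691 several and 1555 none listed, and 64 were controls. Each array was scaled to a common mean, trimmed by 2% at each tail, of 235.142, and 14.6964 (1/16 of it) was added before log2. Under R 4.3.3, lmFit and eBayes of limma 3.58.1 were run on all 12 arrays with terms for group and kit, leaving 8 residual degrees of freedom, without a signal filter. The number of arrays limits the precision. The largest signal was 19934.9. No 2 arrays held identical values. Figures used Python 3.11.15 and matplotlib 3.10.9.

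The members, lists and tests were chosen with earlier results of these data known. Every probe set of Pax7 and Pax3 is named. From each list of other Pax genes, targets and partners the first 4 measured genes are named, and any gene changed at least 2-fold and called between ASC and QSC, up to 8 in all. Genes most like each member are the 6 with the highest Pearson r. For lists, a gene stands by its probe set of highest mean. On simulated data for ASC against QSC, with 200 of 20380 probe sets changed, 61% of 2-fold and 95% of 4-fold changes were called, with 5 unchanged probe sets called. The arrays themselves had 51% of probe sets called in this comparison, so the simulated shares need not hold for them. Alternatives were no kit term, each kit alone, 2 other pseudocounts, a signal filter, 1 probe set per gene, no scaling, median centring, quantile normalisation, array weights, robust trend, only the arrays compared, a replicate block and each array left out. Arrays of the same replicate number share the kit in ASC and QSC, and their deviations from the group means correlated at 0.15 to 0.28 for all 4 numbers. With the kit removed these correlations ran from -0.51 to -0.23, so pairing beyond the kit was not shown. The block treats the numbers as pairs all the same. In the NMC comparisons the correlations, with the kit left in, ran from -0.37 to 0.39, and the numbers do not pair the arrays. The promoter comes from RefSeq, assembly GRCm38.p6.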

Additional observations from a re-analysis of the deposited data

Results flagged for a closer look

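No array of Pax7 or Pax3 stood apart within its group of 4. Of 99 groups of 4 arrays tested, over 33 probe sets named in the report, 6 had an array whose gap to the nearest other as a share of the group's range exceeded Dixon's 95% critical value, and chance flags about 1 in 20 groups. Fgfr4 on the first ASC array had a log2 level of 9.72, against 8.10 to 8.22 on the other 3. Spry1 on the first NMC array was at 10.75, against 11.18 to 11.23. Gdnf on the second NMC array was at 4.52, against 4.09 to 4.13, and Rpl12 on the third ASC array at 7.25, against 7.46 to 7.47. Among dim probe sets, Pax5 on the second QSC array was at 5.47, against 4.13 to 4.36, and Pax4 on the third ASC array at 4.54, against 3.96 to 4.06.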

How the results depend on the processing

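Pax7 kept its direction and its call in all alternatives run, with ASC against QSC from -3.45 to -2.83, QSC against NMC from 3.91 to 6.83 and ASC against NMC from 1.08 to 3.38 on the log2 scale. Pax3 1420389_at kept its calls in ASC against QSC (-2.69 to -1.34) and QSC against NMC (1.44 to 3.26) and was called in ASC against NMC under median centring alone (0.82). Pax3 1430335_a_at lost its ASC against QSC call with the two-cycle kit alone (-0.69), median centring (-0.58) and quantile normalisation (-0.53), and no left-out array ended it (-1.21 to -0.77). For log2 Pax7 minus log2 Pax3, ASC against QSC was -0.76 at the pseudocount of 1/64 (adjusted exact p = 0.143). Leaving out each array gave -1.32 to -0.88, with an adjusted exact p of 0.0571 without each QSC array and 0.0286 without each ASC array. With the replicate block the ASC against QSC difference was -1.09. Its exact sign-flip p was 0.125, the smallest that 4 pairs give, so no call was possible. QSC against NMC and ASC against NMC gave 3.21 and 2.12 with the same p, although the numbers do not pair those arrays. The block changed no call of a Pax7 or Pax3 probe set, though that of Carm1 was lost (adjusted p = 0.0872). Probe sets called numbered 10397, 7183 and 9947 in ASC against QSC, QSC against NMC and ASC against NMC. They numbered 6379, 1535 and 5284 with the small-sample kit alone and 6798, 4754 and 6564 with 1 probe set per gene, which tests fewer. The share of calls that were lower in ASC against QSC was 61.4%, against 45.3% unscaled, 35.1% under median centring and 45.9% under quantile normalisation. In QSC against NMC it was 45.5%, 76.6%, 41.2% and 47.2%, and in ASC against NMC 55.1%, 59.3%, 29.9% and 43.4%. The median of all probe sets in ASC against QSC was -0.19, and 0.12 under median centring; Pax7 relative to it was -3.10 and -2.97. Signs turned only for values that were not called. In ASC against QSC, Pax4 was -0.23 with the small-sample kit, -0.03 at the pseudocount of 1/64 and -0.03 unscaled, and ran from -0.12 to 0.09 over the left-out arrays. In QSC against NMC, the small-sample kit gave Pax1 -0.53, Itm2a -0.17 and Tle4 -0.12, the two-cycle kit Pax4 -0.08, unscaled values Pax1 -0.20, Itm2a -0.29, Carm1 -0.03 and Tle4 -0.06, and quantile normalisation Pax1 -0.05, Pax4 -0.02 and Itm2a -0.11. Left-out arrays gave Pax1 -0.11 to 0.31, Pax4 -0.01 to 0.12 and Itm2a -0.07 to 0.25. Of the calls in QSC against NMC, that of Pax8 was lost in 19 alternatives, Ash2l in 16 and Pax6 in 10. The causes were not tested.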
